A study of Mus musculus with 48 samples.

Results

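The genes of the cytosolic ribosomal proteins were followed through mouse bone and cultured osteocyte-like cells. They were chosen by symbol: every row of the deposited tables named Rpl or Rps with a number and no other ending than a, l, x, al or l1, together with Rplp0, Rplp1, Rplp2 and Rpsa, and without Rps27a, which also encodes ubiquitin. This gave 85 of 55335 gene rows, 53 for the large and 32 for the small ribosomal subunit. Of these, Rpl6l, Rps4l and Rps12l1 are annotated as pseudogenes in GENCODE M21 (GRCm38). Some genes of the ribosome fall outside the rule, such as Rps3a1, Fau and Rack1.

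Poly(A)-selected RNA was sequenced, and 27 libraries in 9 groups of 3 had values, of 48 samples in the series. The other 21 samples were not analysed here. All bone came from wild-type C57BL/6J mice. Old cortical bone was taken from femora and tibiae of animals aged 18 months. The wording of its protocol also names nonosseous tissue and marrow. Young bone consisted of fragments of long and parietal bones of mice aged 1 month, kept for 48 h in medium conditioned by other bone; one group is titled transfer and the other control, and the labels do not say whose medium each received. MLO-Y4 is an established mouse cell line that resembles osteocytes, which lie within mineralized bone. It was given no ADP or 2 µM ADP for 2 h, or DMSO vehicle or 50 µM oligomycin A for 1 h. Supernatants of the vehicle and oligomycin A cultures were moved onto fresh MLO-Y4 cultures for 2 h, giving the vehicle supernatant and oligomycin A supernatant groups. Oligomycin A blocks the mitochondrial ATP synthase, and ADP is a ligand of purinergic receptors. The vehicle libraries are vehicle by title and protocol, although their treatment label lists oligomycin A beside DMSO, and that label gives the concentration of the stock. The labels do not state that the replicates of a group came from separate cultures or animals, and p-values cover only the variation among the libraries at hand, which may be of technical origin.

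The labelled cell types were set against their markers. In the 18 MLO-Y4 libraries Pdpn lay between 150.7 and 290.0 FPKM and Phex between 7.04 and 12.9, but Sost was listed at 0 in each and Dmp1, Mepe, Fgf23 and Dkk1 did not exceed 0.134 FPKM. The bone libraries held Dmp1 at 10.9 to 303.1, Mepe at 25.0 to 1309 and Sost at 0.682 to 7.15 FPKM. Dkk1 lay at 2.41 to 39.8 FPKM in bone, and Fgf23 did not exceed 0.37 FPKM there. Phex was at 0.195 to 0.462 FPKM in old bone and at 0.247 to 3.05 FPKM in young bone. Pdpn was at 0.122 to 2.3 FPKM in old bone and higher in young bone. Both Phex and Pdpn lay below all MLO-Y4 libraries in every bone library. Erythroid markers made up 43.7% to 45.4% of all FPKM in old cortical bone and 0.364% to 4.33% in young bone, and neutrophil and myeloid precursor markers made up 11.8% to 12.8% in old bone. Several libraries stood apart by transcripts of other kinds. Vehicle library 2 had 27.5% of its FPKM in rRNA-like and 7S RNA genes, against 0.421% and 0.411% in the other vehicle libraries. Satellite-like genes, rows of repeat transcripts, took 66.1%, 5.80% and 89.9% of the FPKM of the 3 transfer libraries and 81.7% to 88.6% of the control libraries. The satellite-like, rRNA-like and 7S rows are called satellite and structural RNA genes in what follows.

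Each ribosome carries one copy of nearly every ribosomal protein, so these genes are transcribed together at high levels in growing cells. Many of their messengers begin with a cytosine followed by an unbroken run of pyrimidines, the terminal oligopyrimidine tract, through which mTOR signalling and the La-related protein Larp1 control their translation. The acidic P proteins form the stalk of the large subunit, where translation factors bind. A few ribosomal proteins have a second gene whose expression depends on the tissue.

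RefSeq promoter windows of GRCm38.p6 were found for 63 of the 85 genes. A listed start at C with 4 pyrimidines after it was present in 13 of these 63 (20.6%), against 3.01% of 27025 genes in the same table: Rpl14, Rpl15, Rpl28, Rpl35, Rpl35a, Rpl38, Rplp2, Rps6, Rps10, Rps15a, Rps18, Rps21 and Rps27. Each window runs from 15 bases before the listed start through the first 15 bases of the transcript, 5′ to 3′ on the strand of the gene. Capitals mark the run of C and T that begins with C, has at least 5 bases and lies nearest the start. Shown are 4 genes with such a start, then Rpl18 and Rpl36al, which passed the test in a comparison, and Rplp0 and Rpsa, which were followed by role.
Rpl35 (chr2:39005117-39005146, minus strand): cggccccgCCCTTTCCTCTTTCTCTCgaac
Rps27 (chr3:90213634-90213663, minus strand): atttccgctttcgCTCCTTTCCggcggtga
Rplp2 (chr7:141447636-141447665, plus strand): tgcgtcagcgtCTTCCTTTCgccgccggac
Rps6 (chr4:86857353-86857382, minus strand): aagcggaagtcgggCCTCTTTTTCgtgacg
Rpl18 (chr7:45718056-45718085, plus strand): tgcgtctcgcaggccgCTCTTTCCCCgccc
Rpl36al (chr12:69184053-69184082, minus strand): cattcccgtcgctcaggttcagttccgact
Rplp0 (chr5:115559452-115559481, plus strand): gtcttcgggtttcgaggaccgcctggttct
Rpsa (chr9:120127751-120127780, plus strand): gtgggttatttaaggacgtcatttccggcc

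The run of Rpl35 covers 18 bases across its listed start, and that of Rpl18 begins 1 base after it. The windows of Rpl36al, Rplp0 and Rpsa hold no such run. A C followed by 4 pyrimidines that begins within 5 bases of the start was found in 29 of the 63 genes. This is 46.0%, against 21.2% of all genes, so the share depends on the exact place of the listed start. In the longer windows, from 250 bases before to 50 after the start, CTTCCG on either strand was found in 66.7% of the 63 genes against 18.8% of all genes, a string found in binding sites of ETS family factors. The TATA box string TATAAA was found in 11.1% against 15.7%. These matches describe the letters of the windows.

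In MLO-Y4 cells ribosomal protein genes made up 3.54% to 5.88% of the summed FPKM of a library. Their summed level was 14932, 14794 and 15502 FPKM in the 3 libraries without ADP and 15267, 15925 and 16473 FPKM with ADP. Of all FPKM of a library this was 5.40%, 5.40% and 5.60% without ADP and 5.47%, 5.71% and 5.88% with it, ranges that overlap. In the oligomycin A table the share was 4.94%, 3.54% and 4.86% with vehicle and between 4.40% and 4.55% in the 3 libraries with oligomycin A. It was 4.88%, 4.89% and 4.82% in vehicle supernatant and 4.87%, 4.80% and 5.26% in oligomycin A supernatant. Vehicle library 2 was low on this base, but outside satellite and structural RNA genes the vehicle libraries had 4.96%, 4.89% and 4.88%. All 3 lay above the oligomycin A libraries at 4.51%, 4.41% and 4.57% on that base. Large subunit genes held 63.6% to 65.0% of the summed level in the group means of all 9 groups.

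**Figure D1:**
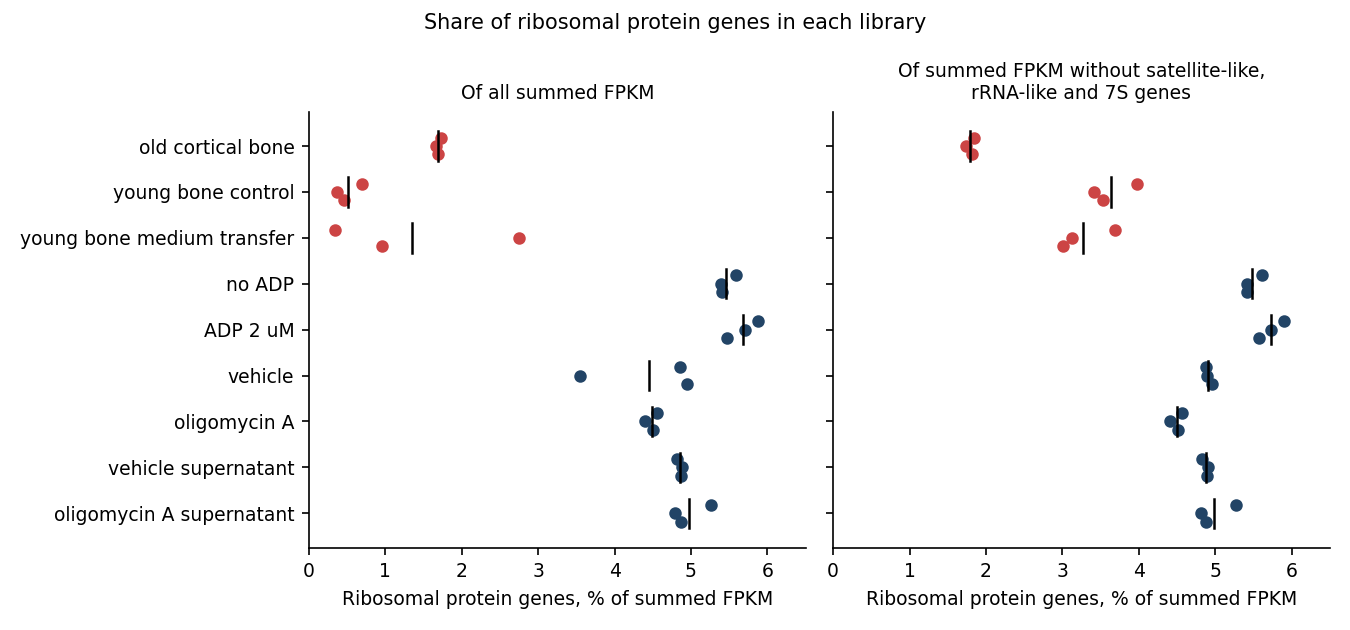
Share of the 85 ribosomal protein genes in the summed FPKM of each library (x axis, percent), by group (y axis); points are libraries, red for bone and blue for MLO-Y4 cells, and black bars are means of 3 libraries. On the left all genes form the base, on the right satellite and structural RNA genes are left out of it; vehicle library 2 moves from 3.54% to 4.89%, and the 6 young bone libraries move from 0.339% to 2.75% up to 3.00% to 3.98%.

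FPKM are scaled per length, and levels are set side by side between genes within the limits of length and shared reads given below. In MLO-Y4 cells without ADP the stalk protein gene Rplp1 (ENSMUSG00000007892, chr9:61913284-61914542, minus strand) was highest, at 1049, 1023 and 1128 FPKM. Rplp0 (ENSMUSG00000067274, chr5:115559467-115563727, plus strand), which anchors the stalk to the large subunit, came next at 765.5, 738.8 and 771.7 FPKM. The 3 libraries of each gene did not overlap with those of the other. Rps2, a small subunit protein near the messenger entry, followed at 680.5 ± 7.06 FPKM (SD, n = 3). The large subunit gene Rpl8 was at 610.0, 616.3 and 649.1 FPKM. Also of the large subunit, Rpl19 was at 568.6 ± 7.71 and Rpl4 at 567.9 ± 7.46 FPKM (SD, n = 3). Rpl19 and Rpl4 did not differ beyond their spread. Rpsa, which encodes a small subunit protein also known as the laminin receptor precursor, was at 412.0, 404.1 and 405.7 FPKM and ranked 8.

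At the low end stood Rpl35a, a large subunit gene, at 9.66, 9.76 and 9.71 FPKM, and among genes outside the paralog pairs next came Rpl6l at 31.0 ± 2.10 and Rps15a at 31.9 ± 2.22 FPKM (SD, n = 3). Rps12l1 was listed at 0 in each of these libraries. The annotation may bear on such low values. There are 275 rows named as pseudogenes of ribosomal protein genes, and 59 of the 85 genes have at least 1. For 6 genes the summed pseudogene rows exceeded the gene itself without ADP, among them Rpl35a at 9.71 against 260.9 FPKM. Rpl31 at 86.2 against 298.9 FPKM and Rpl36a at 90.5 against 122.6 FPKM were also among them. Reads of such genes may have been split between near-identical copies, and their levels are uncertain. The principal transcript of Rps15a has 5179 bases in GENCODE M21, while the median of the 85 genes is 886. Which length entered the FPKM is not given, and the part of length in these levels was not tested.

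Most of the genes varied little between libraries of a group. Among genes of at least 5 FPKM the median coefficient of variation of ribosomal protein genes was 2.72% to 9.48% in the MLO-Y4 groups and 7.81% in old cortical bone. It was 29.1% in young bone control and 59.1% in young bone medium transfer. Over all genes of at least 5 FPKM the medians were 3.80% to 7.54% in the MLO-Y4 groups and 81.0% in the transfer group. Rps10, of the small subunit, was at 130.1 FPKM in vehicle supernatant library 1 and at 77.8 and 77.9 FPKM in the other libraries of that group. No ribosomal protein gene had an SD above 0.5 on the log2(FPKM + 1) scale in an MLO-Y4 group or in old bone, but 76 did in the transfer group and 20 in young bone control.

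In old cortical bone the genes together had 14108, 13590 and 14479 FPKM, close to the sums in MLO-Y4 cells, but with globins and other transcripts in the base this was 1.69%, 1.66% and 1.72% of all FPKM. In bulk tissue fewer cells of a type and less RNA per cell cannot be told apart. The order of levels was nearly the same in all MLO-Y4 groups, with Spearman's rho of at least 0.989 over the 82 genes used. Between old and young bone rho was 0.957 to 0.965, and between bone and MLO-Y4 groups 0.726 to 0.776. These describe genes of 1 series that share transcript lengths and annotation, not replicates. Bone and MLO-Y4 values come from tables that may have been normalized separately, and are given side by side without a test.

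Single genes took very different parts of the ribosomal protein sum in bone and in the cells. Rpl35, a large subunit gene near the exit of the peptide tunnel, was at 684.3, 599.2 and 780.8 FPKM in old bone and at 123.4, 129.2 and 126.2 FPKM in MLO-Y4 cells without ADP. It ranked 2 of the genes in old bone, 3 in both young bone groups and 44 in these cells. As a share of the ribosomal protein sum its old bone value was 5.83 times that in the cells. For Rps19, a small subunit gene mutated in Diamond-Blackfan anaemia, the ratio of shares was 3.53, with 136.6 ± 6.40 against 41.5 ± 1.45 FPKM. It was 3.39 for Rpl29, 3.12 for Rpl35a and 2.89 for Rpl13, all of the large subunit. The pseudogene rows of Rpl35a exceeded the gene itself without ADP, as given above, so its ratio is uncertain. At the other end Rpl12, a large subunit protein at the base of the stalk, had 0.294 times its share in the cells, with 35.5 ± 3.58 against 129.1 ± 3.18 FPKM (SD, n = 3 each). Rps28 stood at 0.349, Rpsa at 0.358, Rpl5, which carries the 5S RNA together with Rpl11, at 0.363 and Rps2 at 0.379. Old bone held the erythroid and myeloid markers given above, and their part in these differences was not tested.

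**Figure D2:**
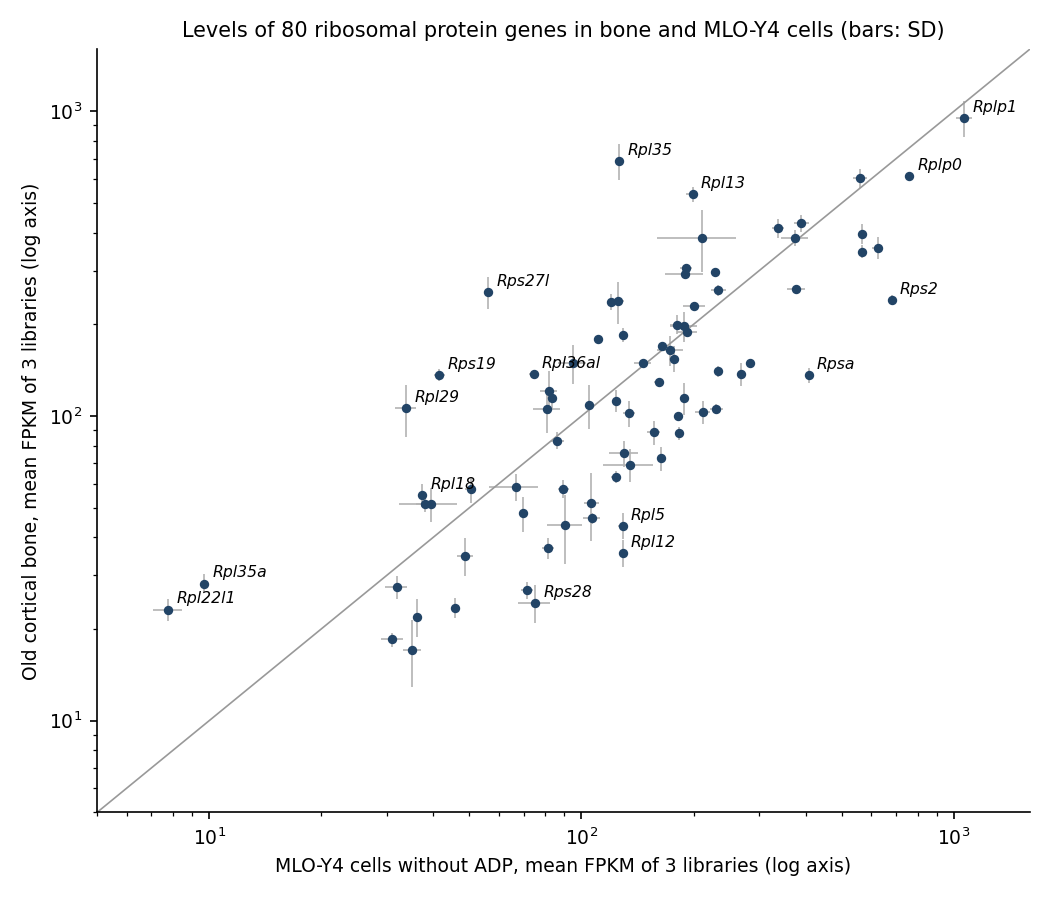
Mean FPKM of 80 ribosomal protein genes in MLO-Y4 cells without ADP (x axis, log scale) and in old cortical bone (y axis, log scale); each point is a gene, bars are SDs of 3 libraries, and the line marks equal FPKM. Rpl35 (688.1 against 126.3 FPKM) and Rps27l (255.7 against 56.1) lie far above the line, and Rpl12 (35.5 against 129.1), Rpsa and Rps2 far below it.

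Some genes with a second copy differed between bone and cells in their part of the pair. Rps27l encodes a small subunit protein that can stand in for Rps27 and is known as a target of p53. In old bone Rps27l made up 62.9% ± 3.4 of the FPKM of the pair, and in MLO-Y4 cells without ADP 27.8% ± 1.01 (SD, n = 3 each). Its levels were 221.8, 282.1 and 263.2 FPKM in old bone against 54.4, 57.0 and 56.9 FPKM in those cells, while Rps27 itself was at 149.6 ± 4.07 and 145.9 ± 7.73 FPKM. Thus the pair was led by Rps27l in bone and by Rps27 in the cells.

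Rpl22l1 and Rpl22, paralogs of the large subunit, were split likewise, with Rpl22l1 at 57.9% ± 5.6 of the pair in old bone and 18.1% ± 0.54 without ADP. Both were low genes: 21.6, 22.7 and 25.2 FPKM of Rpl22l1 in old bone, and 6.97, 8.01 and 8.31 FPKM in the cells. Rpl36al, a copy of the X-linked Rpl36a, held 76.0% ± 5.1 of its pair in old bone and 45.2% ± 2.40 without ADP. The pseudogene rows of Rpl36a exceeded the gene itself, as given above, so the shares of this pair are uncertain. Rpl7l1 held about the same part of its pair in all groups, with group means of 18.3% to 24.4%.

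A further group of copies was found in bone and hardly in the cells. Rpl39l, a copy of Rpl39 best known from male germ cells, was listed at 0 in all 18 MLO-Y4 libraries, at 0.681, 2.03 and 1.70 FPKM in old bone, and at 2.80 to 18.6 FPKM in young bone. Rps4l, annotated as a pseudogene and paired here with Rps4x, was at 15.3, 15.1 and 11.9 FPKM in old bone and at 16.6 to 94.6 FPKM in young bone, and did not exceed 0.0599 FPKM in MLO-Y4 cells. Young bone held the satellite-like transcripts given above, and their part in these values was not tested. Rpl3l, known from muscle, stayed at or under 0.664 FPKM in every library. Rpl10l, known from testis, was listed at 0 in all MLO-Y4 and old bone libraries and did not exceed 0.891 FPKM in young bone.

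**Figure D3:**
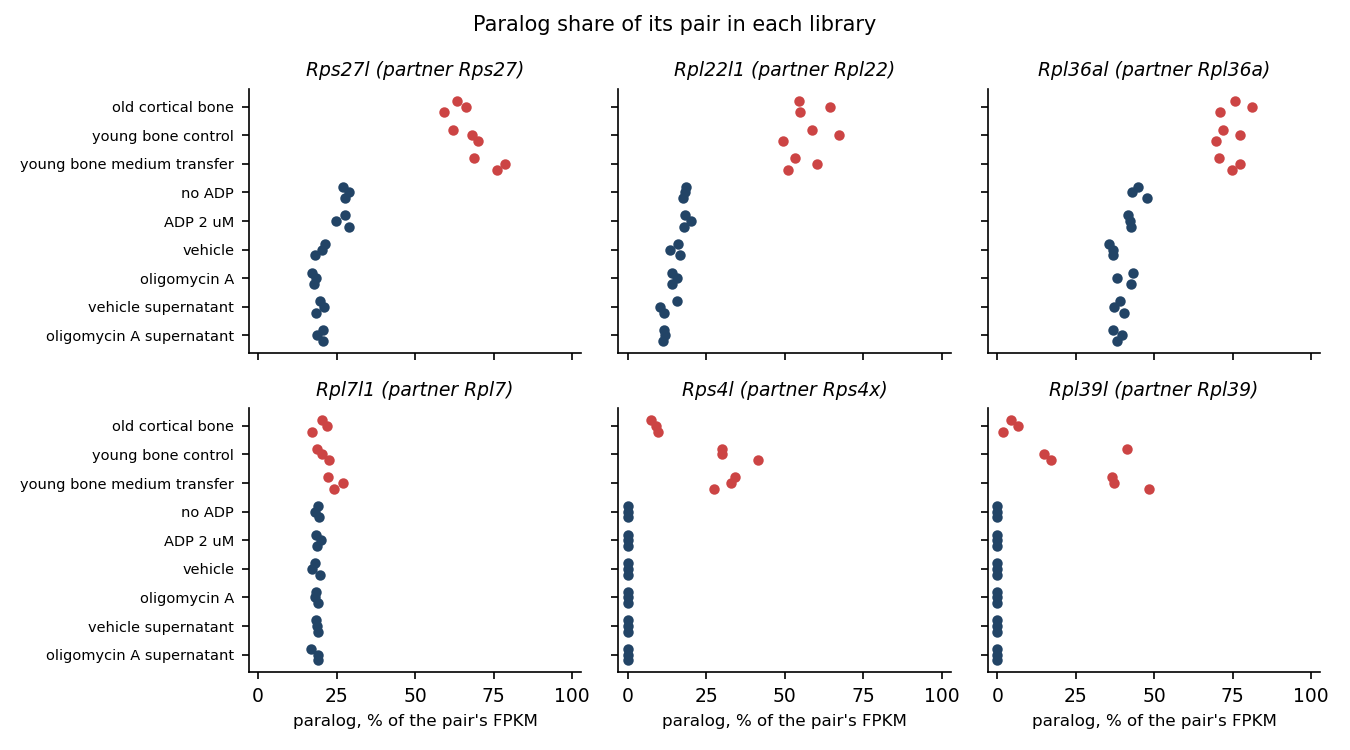
Share of the paralog in the FPKM of its pair (x axis, percent) for 6 pairs of ribosomal protein genes, by group (y axis); points are libraries, red for bone and blue for MLO-Y4 cells. Rps27l, Rpl22l1 and Rpl36al lie above all MLO-Y4 libraries in every bone library, Rpl7l1 is near 20% in all groups, and Rps4l and Rpl39l are at or near 0 in MLO-Y4 cells.

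The first comparison asks what 1 h of oligomycin A does to MLO-Y4 cells. Ribosomal protein genes were mostly slightly lower with oligomycin A, but hardly any single gene passed the test. Of the 85 genes 80 passed the filter of a mean of 1 FPKM, all but Rpl3l, Rpl10l, Rpl39l, Rps4l and Rps12l1. Among these 80, 70 had a negative log2 fold change, and the median was -0.12, against -0.00 over all 11902 genes tested. By limma with a Benjamini-Hochberg adjusted p below 0.05, 1 was lower (1.63% of all genes tested) and 0 were higher (3.71%). At an unadjusted p under 0.05 there were 21, all lower, while 22.2% of all genes had such a p. In 37 the 3 treated libraries all lay below the 3 vehicle libraries, against 13.1% of all genes tested, and in 0 all above (16.8%). The medians of large and small subunit genes were -0.10 and -0.12.

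The 1 gene called was Rpl18 (ENSMUSG00000059070, chr7:45715457-45720836, plus strand), which encodes a large subunit protein. Its level was 36.6, 38.8 and 41.5 FPKM with vehicle and 31.6, 30.8 and 30.3 FPKM with oligomycin A. All treated libraries were below all vehicle libraries, and the log2 fold change was -0.32 ± 0.08 (SE; limma adjusted p = 0.0385). This call did not hold without any 1 of the 6 libraries, with limma adjusted p between 0.0502 and 0.119. It also failed with no filter on low values (adjusted p = 0.0844) and after rescaling to one total (adjusted p = 0.493).

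The 3 stalk genes and Rpsa had log2 fold changes between -0.27 and -0.15. Rplp0 was at 696.7, 659.1 and 711.4 FPKM with vehicle and at 613.9, 606.9 and 614.5 FPKM with oligomycin A, without overlap, a log2 fold change of -0.17 ± 0.05 (limma adjusted p = 0.0546). Rplp2 (ENSMUSG00000025508, chr7:141447370-141451585, plus strand) was at 101.7, 95.9 and 98.9 FPKM against 78.7, 77.1 and 89.5 FPKM, also without overlap (-0.27 ± 0.08, limma adjusted p = 0.0621). Its stalk partner Rplp1 was at 992.6, 855.6 and 965.1 against 849.8, 794.1 and 889.8 FPKM, and these libraries overlapped (-0.15 ± 0.08, limma adjusted p = 0.307). Rpsa (ENSMUSG00000032518, chr9:120127689-120132369, plus strand) was at 324.9, 305.7 and 328.0 against 281.5, 289.0 and 283.2 FPKM, without overlap (-0.17 ± 0.05, limma adjusted p = 0.103). Of these 4 genes none passed on the values as deposited.

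**Figure D4:**
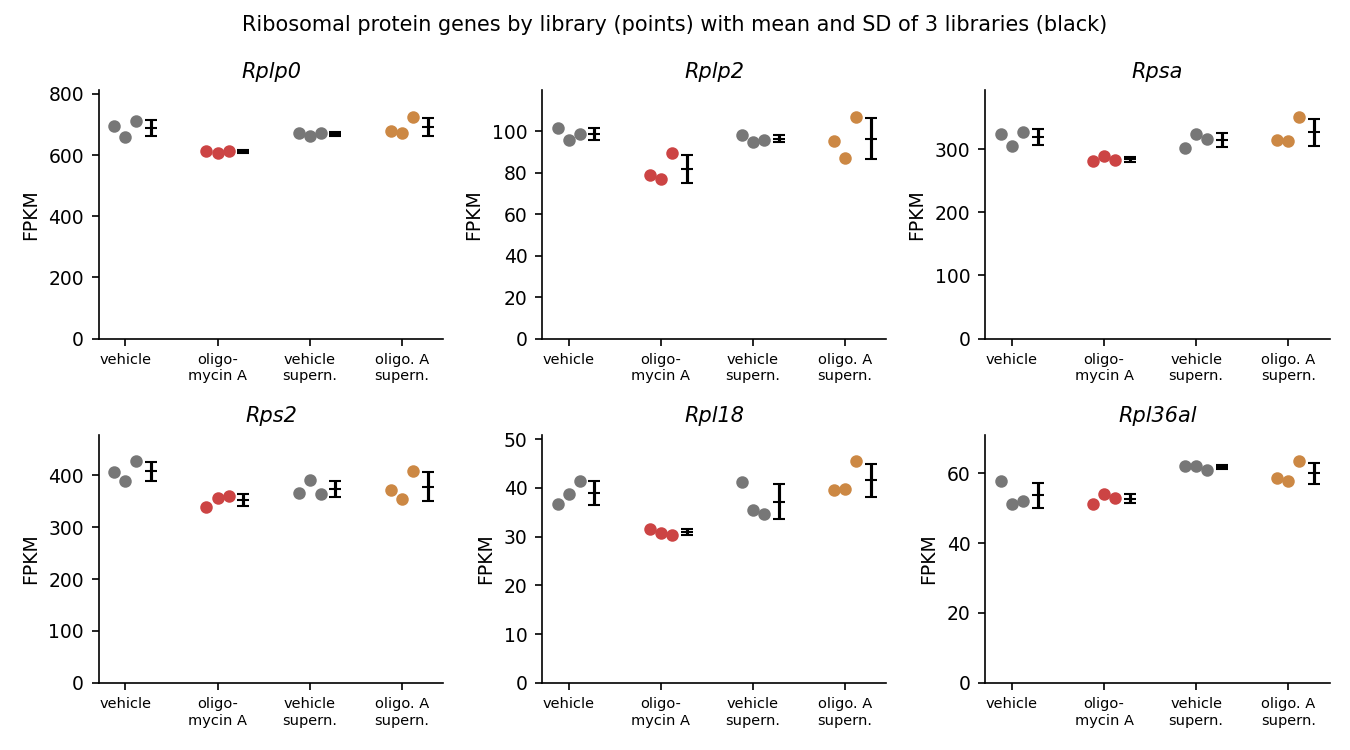
FPKM (y axis) of 6 ribosomal protein genes in the 4 groups of the oligomycin A table (x axis); points are libraries, and the black marks are the mean and SD of 3 libraries. In Rplp0, Rplp2, Rpsa, Rps2 and Rpl18 the 3 oligomycin A libraries lie below all 3 vehicle libraries; Rpl36al is higher in all 3 vehicle supernatant libraries than with vehicle.

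Within the set some genes stood on the other side. Rpl22 had the largest positive log2 fold change, 0.15 ± 0.15, from 29.9, 30.6 and 35.5 to 40.5, 29.8 and 37.4 FPKM, and its libraries overlapped. Rpl22l1 was next with 0.07 ± 0.11. Rps27l, the paralog of Rps27, was at 39.4, 42.5 and 44.6 against 32.1, 35.1 and 33.4 FPKM (-0.32 ± 0.11, limma adjusted p = 0.111). Its share of the pair was 18.2%, 20.3% and 21.3% with vehicle and 17.7%, 18.4% and 17.2% with oligomycin A, and these overlapped. Neither gene of the pair Rpl36a and Rpl36al passed, at -0.31 ± 0.10 and -0.02 ± 0.06.

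The scaling of the libraries decided how many ribosomal protein genes were called. Rescaling to one total outside satellite and structural RNA genes, which removes the share that set vehicle library 2 apart, left the median at -0.12 and gave 16 lower genes, against 3.80% of all genes tested. They were Rpl6, Rpl8, Rpl12, Rpl13, Rpl14, Rpl18, Rpl28, Rpl36, Rplp0, Rplp2, Rps2, Rps9, Rps13, Rps15, Rps26 and Rpsa. Under it Rplp0 had a log2 fold change of -0.17 ± 0.03 (limma adjusted p = 0.00342). With that rescaling and without vehicle library 2, chosen after seeing the data, 6 were lower (1.82% of all genes). Without vehicle library 2 on the values as deposited 4 were lower (3.07%). Median-of-ratios scaling gave 9 lower (3.40% of all genes), and quantile normalization 19 (4.39%).

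Rescaling to one total of all genes turned the direction. The median then was 0.03, with 55 of 80 genes positive, beside 0.12 for all genes tested, and 0 genes were called (2.16% of all genes were higher and 0.159% lower). Set against the shift of all genes, ribosomal protein genes were again on the lower side. On the base of all genes vehicle library 2, with 27.5% in rRNA-like and 7S RNA genes, had a ribosomal protein share of 3.54%. Vehicle libraries 1 and 3, at 4.94% and 4.86%, lay above the oligomycin A libraries at 4.40% to 4.55%. Rescaling to one total was not run without vehicle library 2. The split of calls over all genes moved too, from 442 higher and 194 lower genes as deposited to 257 and 19 with one total and to 649 and 452 without satellite and structural RNA genes. With the libraries brought to one ribosomal protein sum, Rpl4, Rpl5, Rpl17 and Rpl30 were called higher (13.4% of all genes) and Rpl36 lower (0.705%).

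Transcript length moved with these differences among other genes. Other coding genes with principal transcripts no longer than the median of the set, 882 bases in this count, had a median log2 fold change of -0.12 (396 genes), and longer ones 0.01 (9583 genes). Shorter and longer ribosomal protein genes had -0.12 and -0.11. The 13 genes whose listed start is C with pyrimidines had -0.13, and the other 47 matched genes -0.11.

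**Figure D5:**
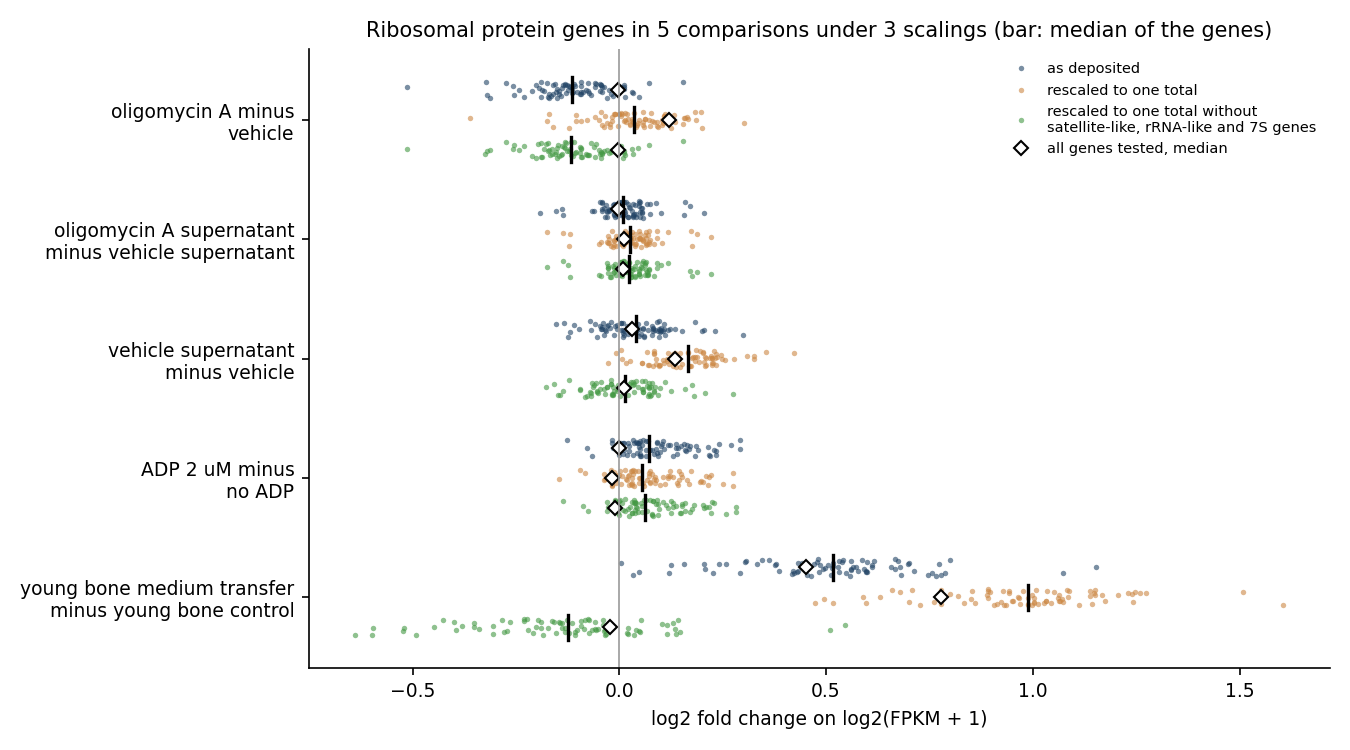
Log2 fold changes on the log2(FPKM + 1) scale (x axis) of the ribosomal protein genes in 5 comparisons (y axis); points are genes, coloured by scaling, black bars are medians of the genes, and diamonds are medians of all genes tested. With oligomycin A the median is -0.12 as deposited and 0.03 with one total, and in young bone it is 0.52 as deposited, 0.99 with one total and -0.12 without satellite and structural RNA genes.

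The recipient comparison asks whether the supernatant of treated cells acts on other cells. No difference of ribosomal protein genes was called. Of 80 genes 0 passed by limma (0.277% of all genes tested were higher and 0.109% lower), 0 had an unadjusted p under 0.05 (8.08% of all genes), and every other setting run also gave 0. The median log2 fold change was 0.01, and 46 were positive. In 1 gene, Rpl3, all libraries of the oligomycin A supernatant lay above those of the vehicle supernatant (6.65% of all genes), and in 0 all lay below (6.49%). Oligomycin A supernatant library 3 had the highest sum of the table, 14830 FPKM against 12489 to 13632 FPKM in the vehicle, vehicle supernatant and other oligomycin A supernatant libraries. Without it the median was -0.06, with 68 of 80 negative, and without library 2 of that group it was 0.06, with 69 positive, so 1 library set the direction.

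Single values in recipients were within the spread. Rpl22 was at 44.9, 44.4 and 30.8 FPKM in vehicle supernatant and at 42.9, 43.9 and 50.5 FPKM in oligomycin A supernatant, a log2 fold change of 0.21 ± 0.15 (SE). Lowest were Rps10 at -0.19 ± 0.17, where vehicle supernatant library 1 alone was high, and Rps20 at -0.15 ± 0.12. The stalk genes Rplp0, Rplp1 and Rplp2 lay at 0.05, 0.01 and -0.00, and Rpsa at 0.05. Rpl18 had the smallest limma adjusted p among the 80 genes, 0.668, at 0.16 ± 0.08.

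The recipient response was also set against the direct response in the same fit. It uses the vehicle and vehicle supernatant libraries of both comparisons, and its values follow from theirs. Of 80 genes 72 had a positive difference, with a median of 0.11 beside -0.00 for all genes, but 0 passed (0.0840% of all genes tested were higher and 0.361% lower). At an unadjusted p under 0.05 there were 13 of 80, all higher, while 10.7% of all genes had such a p. Rpl18 had a difference of 0.48 ± 0.11 (limma adjusted p = 0.108). Rpl13a at -0.07 and Rpl4 at -0.05 were lowest. After rescaling outside satellite and structural RNA genes 2 passed as higher, Rplp0 at 0.23 (limma adjusted p = 0.0153) and Rps9, a small subunit gene, at 0.32 (limma adjusted p = 0.0403), against 0.277% of all genes, and 0 as lower (0.655%). With one total the median of the set was -0.03.

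Cells given vehicle supernatant for 2 h differed from cells given vehicle for 1 h in time and handling, and share the vehicle and vehicle supernatant libraries with the comparisons above. Hardly any ribosomal protein gene passed the test, although many other genes did. Of 80 genes 1 was higher (9.49% of all genes tested) and 0 lower (5.18%), with a median of 0.04 beside 0.03 for all genes. All 3 vehicle supernatant libraries lay above the vehicle libraries in 18 genes (21.6% of all genes) and below them in 1, Rpl36 (12.6%). At an unadjusted p under 0.05 there were 3 genes, all higher, Rpl36al, Rpl5 and Rpl6l, while 30.0% of all genes had such a p.

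The gene called was Rpl36al (ENSMUSG00000049751, chr12:69182731-69184083, minus strand). It was at 57.6, 51.1 and 52.2 FPKM with vehicle and at 62.1, 61.9 and 61.0 FPKM in vehicle supernatant, without overlap, a log2 fold change of 0.20 ± 0.06 (SE; limma adjusted p = 0.0359). The call was lost without vehicle library 2 (limma adjusted p = 0.0889), without vehicle library 3 and without any 1 of the vehicle supernatant libraries. Without vehicle library 1 Rpl13a was called as well, and without vehicle supernatant library 3 Rpl22 was called, at 0.47. Its partner Rpl36a was at 93.2 ± 5.51 and 96.7 ± 6.27 FPKM (SD, n = 3 each). The largest value belonged to Rpl22, 0.30 ± 0.15 (limma adjusted p = 0.20), and Rps25, a small subunit gene, had 0.23 ± 0.12, with vehicle supernatant library 1 high at 52.7 FPKM and the others at 37.9. Rpl10a was lowest at -0.15. Other scalings added a few calls: quantile normalization gave Rpl5, Rpl23, Rpl36al and Rps6 as higher (9.44% of all genes), and rescaling outside satellite and structural RNA genes gave Rpl36al as higher (9.71%) and Rps2 as lower (8.12%). With one ribosomal protein sum Rpl36al was higher (6.83%) and Rpl36 and Rps2 were lower (5.70%).

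Under 2 µM ADP the ribosomal protein genes were mostly slightly higher than without ADP, and none passed. Of 80 genes 71 had a positive log2 fold change, with a median of 0.07 beside -0.00 for all 11604 genes tested. By limma 0 were called (0.0517% of all genes tested were higher and 0.00862% lower), with a smallest adjusted p of 0.83. At an unadjusted p under 0.05 there were 20, all higher, against 5.84% of all genes. In 15 genes the ADP libraries all lay above the others (5.33% of all genes), and in 1, Rpl15, all below (5.27%). ADP library 1 was the lowest of its group in the summed level, at 15267 FPKM, and lay below library 3 without ADP at 15502 FPKM.

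Among single genes the stalk protein gene Rplp2 had a log2 fold change of 0.22 ± 0.07 and Rplp0 one of 0.00 ± 0.03. Rpl36a was at 79.5, 98.2 and 93.8 FPKM without and at 102.4, 112.3 and 117.7 FPKM with ADP, without overlap (0.29 ± 0.09, limma adjusted p = 0.842). Rpl6l, annotated as a pseudogene, also had 0.29, and its libraries overlapped. Rps21, of the small subunit, was at 75.9, 78.3 and 88.7 against 88.8, 101.5 and 103.3 FPKM, with the lowest ADP library barely above the highest without ADP (0.27 ± 0.08). Rps27l was at 54.4, 57.0 and 56.9 against 61.1, 62.6 and 68.4 FPKM (0.19 ± 0.05, limma adjusted p = 0.83, the smallest of the set). Rpl26 at -0.13 and Rpl15 at -0.08 were lowest.

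Length moved with the ADP values. The 40 shorter ribosomal protein genes had a median of 0.10 and the 40 longer ones 0.05, with Spearman's rho of -0.40 over the 80 genes, a description across genes that share libraries. Other coding genes had 0.04 when short and -0.01 when longer. Rows of ribosomal protein pseudogenes had a median of 0.17 over the 88 that passed the filter. What part length or shared reads have in these values was not tested.

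In young bone fragments no ribosomal protein gene passed the test, and the direction of the set turned with the scaling. As deposited all 82 genes that passed the filter were positive in medium transfer against control, with a median log2 fold change of 0.52. Over all 16438 genes tested the median was 0.45 and 85.1% were positive. Of the 82 genes 0 were called (0.0122% of all genes were higher and 0.0122% lower), 0 had an unadjusted p under 0.05 (2.24% of all genes) and 0 had libraries without overlap (3.49% of all genes were without overlap and higher, and 0.596% lower). Their sums were 7056, 13253 and 3718 FPKM in transfer and 4795, 3825 and 6726 FPKM in control, and the 2 groups overlapped: transfer library 2, with the fewest satellite-like transcripts, was highest and transfer library 3, with the most, was lowest. Without transfer library 2 the median was 0.06, and without transfer library 3 it was 1.02.

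With the satellite and structural RNA genes left out of the total the median was -0.12, with 64 of 82 genes negative, beside -0.02 for all genes. On that base ribosomal protein genes made up 3.00%, 3.12% and 3.69% of the transfer libraries and 3.53%, 3.42% and 3.98% of the control libraries, which overlap. Rplp0 was at 264.4, 649.2 and 112.8 FPKM in transfer and at 170.3, 143.4 and 308.3 FPKM in control (0.45 ± 0.90). Rpl6l at 1.15 ± 0.78 and Rpl39l at 1.07 ± 0.78 had the largest values, and Rps21 at 0.00 and Rpl39 at 0.03 the smallest. SEs of this size are close to a log2 fold change of 1, so changes of that size could not be told from the spread.

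Other genes of ribosome production were taken from lists fixed for this purpose. Of 45 ribosome biogenesis genes, which act in transcription and processing of rRNA and in subunit assembly, 6 were lower with oligomycin A and 0 higher: Ppan at -0.49 ± 0.09, Bysl at -0.36 ± 0.06, Gar1 at -0.34 ± 0.06, Nob1 at -0.33 ± 0.08, Rrs1 at -0.32 ± 0.08 and Nhp2 at -0.25 ± 0.06 (limma adjusted p = 0.00665 for Gar1). Over all genes tested 1.63% were lower and 3.71% higher. The median of the list was -0.08. With one total 0 were lower (0.159% of all genes) and the median turned to 0.06. Rescaled outside satellite and structural RNA genes, 7 were lower (3.80% of all genes) and the median was -0.08. In vehicle supernatant against vehicle 35 of the 45 were higher (9.49% of all genes) and 0 lower (5.18%), with a median of 0.31. Among them Rrp1b had 0.73 ± 0.09, Rrp12 0.70 ± 0.13, Polr1b, a subunit of RNA polymerase I, 0.66 ± 0.14, and Dkc1, the pseudouridine synthase of box H/ACA particles, 0.59 ± 0.08. With one total 15 were higher (4.07% of all genes) and 0 lower (0.856%). Outside satellite and structural RNA genes 31 were higher (9.71%) and 0 lower (8.12%), with a median of 0.29. In that comparison the ribosomal protein genes had the median of 0.04 given above, side by side with 0.31. In the recipients 0 of the 45 were called (0.277% of all genes were higher and 0.109% lower). Under ADP 0 were called as well (0.0517% higher and 0.00862% lower), and so in young bone (0.0122% higher and 0.0122% lower).

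Mitochondrial ribosomal protein genes, which build the separate ribosome of mitochondria, had a median of -0.09 over 78 genes with oligomycin A, and 2 were lower, Mrpl12 and Mrps10 at -0.27 and -0.28 (1.63% of all genes). With one total 0 were lower (0.159% of all genes) and the median was 0.03. In vehicle supernatant 6 of the 78 were higher and 2 lower, beside 9.49% and 5.18% of all genes. With one total these counts were 1 and 0 (4.07% and 0.856%). Rescaled outside satellite and structural RNA genes, 6 of the 78 were lower with oligomycin A (3.80%). In vehicle supernatant 8 were then higher (9.71%) and 3 lower (8.12%). Of 18 translation factor and related genes 0 were called with oligomycin A (3.71% of all genes were higher and 1.63% lower), with a median of -0.01. In vehicle supernatant 3 were higher (9.49% of all genes) and 0 lower (5.18%): Eif3e at 0.28, Npm1 at 0.25 and Eif2s3x at 0.20. With one total 0 of the 18 were called there (4.07% of all genes were higher and 0.856% lower). Outside satellite and structural RNA genes 5 were higher there (9.71%) and 1 lower (8.12%). On that scaling 1 was higher (5.45%) and 1 lower (3.80%) with oligomycin A. Of 15 growth regulators Myc, a transcription factor that drives ribosome production, rose with oligomycin A by 1.34 ± 0.12 (limma adjusted p = 5.74e-05) and in recipients by 0.65, and fell by 0.78 in vehicle supernatant against vehicle. In the last comparison Eif4ebp2, an inhibitor of cap-dependent translation, fell by 0.36, Maf1, a repressor of RNA polymerase III, fell by 0.24, and Larp4 rose by 0.21. Of the 15 genes 1 was higher with oligomycin A (3.71% of all genes) and 1 in recipients (0.277%). In vehicle supernatant 1 was higher (9.49%) and 3 lower (5.18%). With one total 1 of the 15 growth regulators was called with oligomycin A, as higher (2.16% of all genes). In recipients 0 were called (0.101% of all genes were higher and 0.0419% lower), so that the recipient call of Myc was lost. In vehicle supernatant 0 were higher (4.07%) and 1 lower (0.856%) with one total. Outside satellite and structural RNA genes 3 of the 15 were higher with oligomycin A (5.45%) and 1 in recipients (0.504%). On that scaling 1 was higher (9.71%) and 4 lower (8.12%) in vehicle supernatant.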

How the data were processed

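RNA was selected by poly(A) and sequenced from mouse bone and from the MLO-Y4 line, per the labels' protocols. The values are FPKM, fragments scaled by transcript length and by the fragments of the library, which the authors deposited as 4 tables of 55335 gene rows. HTSeq and mm10 are named in the submitters' processing notes without a role; the aligner and the tool behind the FPKM are not given in the sources used here. Depth is unknown. At the best step 14.2% to 18.7% of the low values of a bone library came within 0.1 of whole fragments. In MLO-Y4 libraries the range was 40.1% to 50.2%. Both were too few to recover counts, so the count test that the design allowed for was not used. The part of this split in the differences between bone and cells was not tested.

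Groups came from sample titles, and the replicate numbers did not pair samples: deviations of same-numbered libraries from their group means correlated at -0.23 to 0.05. The tests were made with limma 3.58.1 (R 4.3.3, trended prior) on log2(FPKM + 1) for genes with a mean of at least 1 FPKM over the libraries of the fit, a scale that understates changes of low genes. All 4 oligomycin A groups entered 1 model, and no test crosses tables. Genes with a Benjamini-Hochberg adjusted p below 0.05 are called. The procedure was tested on simulated data with independent noise for each gene. They held no shift of a whole library, so the simulation does not bear on the choice of scaling. Positions came from GENCODE M21 (55154 gene IDs found) and start windows from RefSeq GRCm38.p6. Tables were joined by gene ID, since 26 symbols differ in 1 table.

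The genes, lists and tests were chosen with earlier results of these data known. Named genes were those called in any comparison, the 3 highest and 3 lowest genes outside the paralog pairs, Rplp0, Rplp1, Rplp2 and Rpsa, the paralog pairs, per comparison the 2 largest changes in each direction, and genes with a group SD over 0.5 on the log2 scale in MLO-Y4 cells (0 were found); other genes named in the text were chosen after their values were seen. Some genes that the rule covers are not reported here. Alternatives were other pseudocounts (0.1 and 5), filters (none and 5 FPKM), 5 scalings, a replicate block, a fit of the compared libraries alone and the omission of single libraries.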

Additional observations from a re-analysis of the deposited data

How the results depend on the processing

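With oligomycin A 1 ribosomal protein gene was called as deposited. This number was 3 with a filter of 5 FPKM (2.315% of all genes tested were lower). In a fit of only the 6 libraries it was 3 (0.796%), and with no filter 0 (0.317%). Median-of-ratios scaling gave 9 (3.40%) and quantile normalization 19 (4.39%). Rescaling outside satellite and structural RNA genes gave 16 (3.80%). It gave 6 when vehicle library 2 was also left out (1.82%, chosen after seeing the data). All genes called in these settings were lower. With one ribosomal protein sum the number was 5, of which 4 were higher (13.4%) and 1 lower (0.705%). With one total it was 0 (2.16% higher and 0.159% lower). Without single libraries it was 0 to 4, all lower, while 0.479% to 3.07% of all genes were lower. Without vehicle library 2 the calls included Rpl6, Rplp0 and Rps9, without oligomycin A library 2 Rpl36a and without library 3 Rplp2. The median was 0.035 with one total, 0.0082 with one ribosomal protein sum and -0.15 to -0.09 without single libraries. In vehicle supernatant the 1 call became 0 in a fit of only the 6 libraries, with no filter, with one total and with the added setting, 2 without satellite and structural RNA genes, 3 with one ribosomal protein sum, 4 with quantile normalization and 0 to 2 without single libraries, where the median was -0.00 to 0.06. With one total that median was 0.17. Across these settings of the vehicle supernatant comparison 2.70% to 9.71% of all genes were higher and 0.856% to 9.13% lower.

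The median difference of the responses was -0.026 with one total and -0.030 with one ribosomal protein sum, and 0.04 to 0.16 without single libraries. Without satellite and structural RNA genes 2 were called, both higher (0.277% of all genes). The recipient median was -0.06 to 0.06 without single libraries. The ADP median was 0.042 with quantile normalization, -0.0027 with one ribosomal protein sum and 0.051 to 0.11 without single libraries. The young bone median reversed to -0.10 with quantile normalization and to -0.12 without satellite and structural RNA genes, and was 0.06 to 1.02 without single libraries. The ribosomal protein share outside satellite and structural RNA genes was 1.80% in old bone, 3.27% in transfer and 3.64% in control. Outside mitochondrial genome transcripts it was 1.76% in old bone, 6.19% without ADP, 6.42% with ADP, 4.99% with vehicle, 5.00% with oligomycin A, 5.46% in vehicle supernatant and 5.52% in oligomycin A supernatant. On that base vehicle libraries 1 and 3, at 5.55% and 5.52%, lay above the oligomycin A libraries at 4.90% to 5.08%, and vehicle library 2, at 3.89%, lay below them. Apart from the construction of each setting, the cause of these shifts was not tested. With the replicate number as a block, 0 ribosomal protein genes were called with oligomycin A (2.67% of all genes were higher and 0.975% lower). In vehicle supernatant 0 were called as well (7.86% higher and 4.41% lower). Same-numbered libraries did not deviate together, so the numbers give no pairing. Depth is unknown, and with 3 libraries a group only differences well above 1 SE can be called.

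Of 882 refits of named genes in 49 pairs of gene and comparison, 785 kept both direction and side of the threshold, 21 lost a call, 14 gained one and 62 changed sign. Of the 62 sign changes 0 concerned a gene called under either setting. With oligomycin A Rpl22l1 turned to -0.018 with the added setting. Rplp1 turned to 0.0031 with one total. Without single libraries this comparison had Rpl22l1 at -0.050 to 0.17. In recipients Rplp1 turned to -0.0073 with one ribosomal protein sum. Rplp2 turned to 0.014 with one total, 0.0083 with median-of-ratios scaling and 0.013 outside satellite and structural RNA genes. Rpsa turned to -0.029 with quantile normalization. Without single libraries this comparison had Rplp1 at -0.066 to 0.079, Rplp2 at -0.079 to 0.066 and Rps10 at -0.31 to 0.053. In the difference of the responses Rpl13a turned to 0.00039 with the added setting. Rpl4 turned to 0.032 with quantile normalization. Without single libraries this comparison had Rpl13a at -0.18 to 0.021. In vehicle supernatant Rplp0 turned to 0.084 with one total and 0.085 with quantile normalization. Rplp1 turned to 0.096 with one total. Rplp2 turned to 0.089 with one total. Rpsa turned to 0.10 with one total and 0.11 with quantile normalization. Without single libraries this comparison had Rpl10a at -0.26 to 0.010, Rplp1 at -0.096 to 0.011 and Rpsa at -0.054 to 0.0055. Under ADP Rplp0 turned to -0.018 with one total, -0.00034 with median-of-ratios scaling, -0.046 with quantile normalization, -0.074 with one ribosomal protein sum and -0.010 outside satellite and structural RNA genes. Rpsa turned to -0.0094 with one total, -0.045 with quantile normalization, -0.066 with one ribosomal protein sum and -0.0019 outside satellite and structural RNA genes. Without single libraries this comparison had Rplp0 at -0.025 to 0.024. In young bone Rpl39 turned to -0.46 with median-of-ratios scaling, -0.61 with quantile normalization, -0.45 with one ribosomal protein sum and -0.60 outside satellite and structural RNA genes. Rplp0 turned to -0.065 with median-of-ratios scaling, -0.11 with quantile normalization, -0.044 with one ribosomal protein sum and -0.20 outside satellite and structural RNA genes. Rplp1 turned to -0.14 with median-of-ratios scaling, -0.29 with quantile normalization, -0.12 with one ribosomal protein sum and -0.28 outside satellite and structural RNA genes. Rplp2 turned to -0.097 with quantile normalization and -0.13 outside satellite and structural RNA genes. Rps21 turned to -0.51 with median-of-ratios scaling, -0.62 with quantile normalization, -0.48 with one ribosomal protein sum and -0.64 outside satellite and structural RNA genes. Without single libraries this comparison had Rpl39 at -0.30 to 0.37, Rplp0 at -0.18 to 1.08 and Rps21 at -0.29 to 0.31.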
